A study of Mus musculus with 8 samples.

Results

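The crossover formation genes are 9 genes of meiotic recombination, *Msh4*, *Msh5*, *Hfm1*, *Rnf212*, *Cntd1*, *Tex11*, *Mlh3*, *Ccnb1ip1* and *M1ap*. They were chosen by gene symbol for their roles, with earlier results of these data known. All 9 were among the 25239 gene symbols counted, and all 9 passed the filter on low counts that left 14249 genes for testing. They were measured by RNA-Seq of whole fetal ovaries at E14.5 in 4 control and 4 *Bmpr1a*-cKO libraries, each a pool of the ovary pairs of 2 embryos. Control embryos were *Bmpr1a* fl/fl without Cre, and *Bmpr1a*-cKO embryos were *Bmpr1a* fl/fl with 1 allele of *Oct4*-Cre, all on a C57BL/6 background. Embryos of both genotypes were exposed to 4-hydroxytamoxifen (1 mg) and progesterone (0.5 mg), injected into the dam on each of 3 days from 9.5 to 11.5 dpc. Cre activity under *Oct4* was directed at germ cells, so the somatic cells of a *Bmpr1a*-cKO ovary still carry the receptor gene, and the presence of Cre cannot be told apart from the deletion in these groups. The embryos were littermates from 6 litters. The litter of each library is not stated, so p-values measure only the spread between these libraries.

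In meiotic prophase I, germ cells break their own DNA and repair the breaks on the homologous chromosome, and a minority of the repair intermediates become crossovers. The ZMM proteins bind and stabilise these intermediates, RING-type regulators and cyclin-like proteins then choose which of them are kept, and the MutL nuclease cuts them into crossovers. Female mouse germ cells enter prophase I in the fetal ovary, so transcripts of these genes can be measured there.

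Control libraries held from 10622684 to 15365052 counts and *Bmpr1a*-cKO libraries from 8562961 to 14887102, with *Bmpr1a*-cKO library 1 the shallowest. A count of 0 allowed at most 0.195 to 0.350 CPM (counts scaled to library size). *Bmpr1a* itself averaged 218 ± 15.3 CPM in control libraries against 195 ± 10.5 CPM after Cre (SD, n = 4 each; FDR = 0.0692). The files do not separate exons, so this level does not check the labels. Germ cell markers were present in every library (summed CPM of 10 genes, 727 to 990 in control against 784 to 1188 in *Bmpr1a*-cKO), and so were markers of pregranulosa cells, the supporting cells of the ovary (8 genes, 1191 to 1334 and 953 to 1164).

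Of the 9 genes, 7 were differentially expressed (DEGs, here an absolute Log2FC above 0.5 with an FDR below 0.05) and all 7 were downregulated in *Bmpr1a*-cKO ovaries. Over all genes tested, 4.06% were downregulated DEGs (578 of 14249) and 6.11% were upregulated DEGs, 10.2% in all. The median Log2FC of the 9 genes was -1.04, against 0.00 over all genes tested. In these 7 genes every *Bmpr1a*-cKO library lay below every control library, which 11.7% of all genes tested also showed (27.9% with either genotype the lower). *Tex11* and *Mlh3* did not pass the test, and their libraries overlapped between genotypes. In RNA from whole ovaries, fewer expressing germ cells and less RNA per germ cell cannot be told apart.

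**Figure D1:**
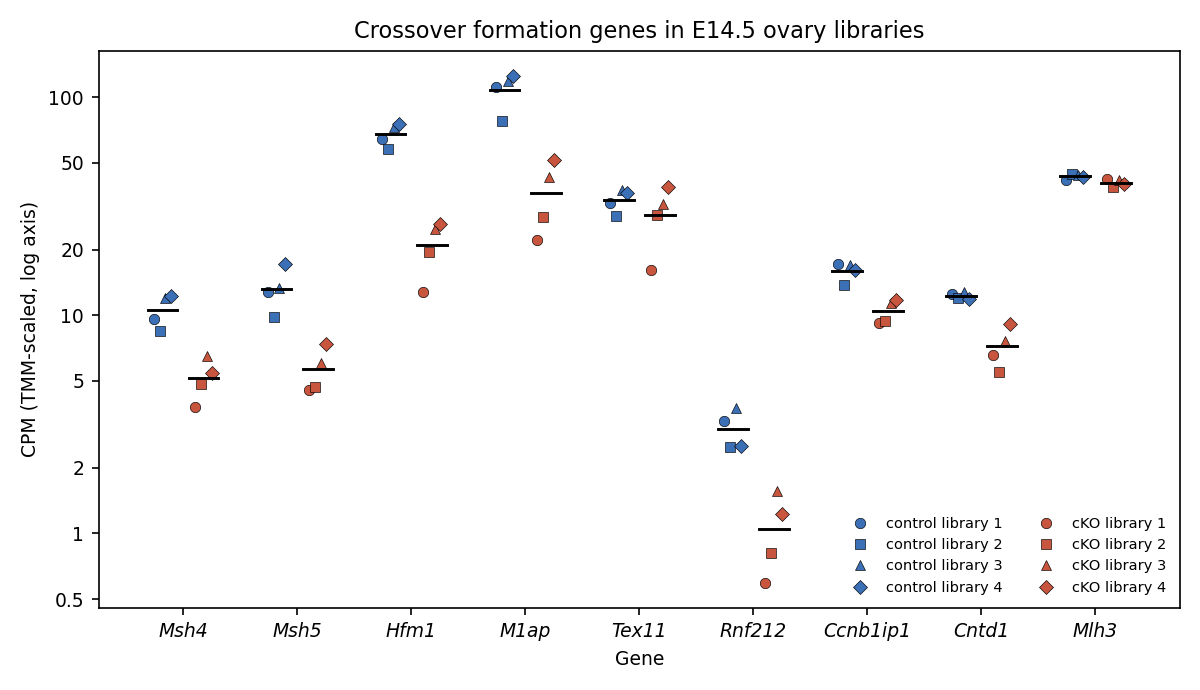
CPM (TMM-scaled, log axis) of the 9 crossover formation genes in each of 4 control (blue) and 4 *Bmpr1a*-cKO (red) libraries, with marker shapes for library numbers 1 to 4 and black bars for group means. The red points lie below all blue points for 7 genes and overlap them for *Tex11* and *Mlh3*.

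The upstream sequences of 5 of the genes are shown because they set genes that fell with a match to a meiotic promoter motif (*Msh5*, *Hfm1* and *M1ap*) beside 1 that fell without a match (*Msh4*) and 1 that did not pass the test (*Mlh3*). *Rnf212*, *Cntd1* and *Ccnb1ip1* also fell without a match to this motif, and their sequences are not shown. Each runs 5′ to 3′ on the strand of the gene, from 150 bases before the RefSeq transcription start (GRCm38.p6) and ends with the first 2 transcribed bases. Capitals mark CNCCTCAG or its reverse complement CTGAGGNG, the motif described for STRA8 and MEIOSIN, the factors that switch on meiotic genes.
Hfm1, chr5:106925889-106926040, minus strand: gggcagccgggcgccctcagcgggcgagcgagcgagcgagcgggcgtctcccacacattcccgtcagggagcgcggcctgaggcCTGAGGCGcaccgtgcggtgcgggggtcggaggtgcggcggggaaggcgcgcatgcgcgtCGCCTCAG
M1ap, chr6:82946772-82946923, plus strand: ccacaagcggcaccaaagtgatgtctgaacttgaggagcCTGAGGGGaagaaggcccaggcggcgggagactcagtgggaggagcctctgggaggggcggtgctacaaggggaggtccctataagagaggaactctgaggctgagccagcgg
Msh5, chr17:35046621-35046772, minus strand: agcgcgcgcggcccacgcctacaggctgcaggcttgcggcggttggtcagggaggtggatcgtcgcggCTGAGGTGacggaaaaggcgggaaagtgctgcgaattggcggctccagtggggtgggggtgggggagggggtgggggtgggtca
Msh4, chr3:153904890-153905041, minus strand: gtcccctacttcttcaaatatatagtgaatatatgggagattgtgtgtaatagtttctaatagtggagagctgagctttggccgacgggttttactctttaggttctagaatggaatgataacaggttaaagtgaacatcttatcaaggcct
Mlh3, chr12:85270598-85270749, minus strand: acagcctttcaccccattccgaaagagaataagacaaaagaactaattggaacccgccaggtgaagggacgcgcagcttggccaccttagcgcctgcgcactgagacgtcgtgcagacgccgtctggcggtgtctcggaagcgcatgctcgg

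The motif was searched on both strands over 300 bases, from 250 before to 50 after the start, in the 8 of 9 genes with a RefSeq promoter entry, and *Tex11* was not among them. It occurred in 3 of the 8 promoters, against 7.97% of all 27025 promoters and 9.18% of the 11262 promoters of genes tested. In *Hfm1* it occurred in both orientations, as CTGAGGCG from 66 to 59 bases upstream and as CGCCTCAG from 6 bases upstream across the start. In *Msh5* CTGAGGTG lay 82 to 75 bases upstream, and in *M1ap* CTGAGGGG lay 111 to 104 bases upstream. Of the other motifs searched, GCGGGAA (E2F) was in *Msh5* and *Rnf212* and in 8.73% of the promoters of genes tested, CACGTG (E-box) in *Rnf212* and *Cntd1* and in 10.1%, and GGCGCC (a GC-rich SMAD motif) in *Hfm1* and in 21.7%. *Msh4*, *Mlh3* and *Ccnb1ip1* had none of the 4 motifs in this window, although *Msh4* and *Ccnb1ip1* were downregulated. A match is a string of letters and does not show binding. For *Hfm1*, *Msh4* and *Ccnb1ip1* the first base of the gene in GENCODE lies upstream of the window, so the sequence before that start was not searched.

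*Hfm1* (chr5:106840192-106926321, mm10, minus strand) encodes the DNA helicase that unwinds and extends recombination intermediates, and it had the largest fold change of the 9 genes. Its levels were 64.1, 58.0, 73.0 and 75.1 CPM in control libraries 1 to 4 and 12.8, 19.6, 24.9 and 26.3 CPM in *Bmpr1a*-cKO libraries 1 to 4. The highest *Bmpr1a*-cKO library stayed well below the lowest control library. The mean fell from 67.5 ± 7.94 to 20.9 ± 6.16 CPM (SD, n = 4 each), a Log2FC of -1.67 (SE 0.151; FDR = 1.56e-06).

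*M1ap* (chr6:82946902-83030309, plus strand), whose product associates with ZMM proteins, was the most abundant of the 9 genes. It was at 111, 77.8, 119 and 125 CPM in control and at 22.1, 28.3, 42.8 and 51.7 CPM in *Bmpr1a*-cKO libraries 1 to 4. Although both groups varied, control library 2 at its low end was still above *Bmpr1a*-cKO library 4. The mean went from 108 ± 20.99 to 36.2 ± 13.5 CPM (Log2FC -1.56; SE 0.198; FDR = 3.60e-05).

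*Msh4* (chr3:153857149-153906138, minus strand) and *Msh5* (chr17:35028605-35046745, minus strand) encode the MutS homologues that pair as a clamp around recombination intermediates. *Msh4* was at 9.62, 8.50, 11.99 and 12.3 CPM in control and at 3.82, 4.83, 6.49 and 5.46 CPM in *Bmpr1a*-cKO libraries 1 to 4. *Msh5* was at 12.8, 9.83, 13.3 and 17.1 CPM in control and at 4.53, 4.69, 6.07 and 7.37 CPM in *Bmpr1a*-cKO libraries. For both genes control library 2 was the lowest control, and it exceeded every *Bmpr1a*-cKO library. *Msh4* fell with a Log2FC of -1.04 (SE 0.165; FDR = 0.000255) and *Msh5* with a Log2FC of -1.22 (SE 0.182; FDR = 0.000147). The counts of the partners stayed close to each other within libraries. The log2 ratio of *Msh5* to *Msh4* averaged 0.31 ± 0.157 in control and 0.13 ± 0.248 in *Bmpr1a*-cKO, with overlap (two-sided exact permutation p = 0.314, 0.419 after Benjamini-Hochberg adjustment over the 4 ratios tested).

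*Tex11* (chrX:100838648-101059667, minus strand) encodes the ZIP4-like scaffold of the ZMM group and is the only 1 of the 9 genes on the X chromosome. It was at 32.7, 28.5, 37.4 and 36.5 CPM in control and at 16.1, 28.8, 32.2 and 38.6 CPM in *Bmpr1a*-cKO libraries 1 to 4. *Bmpr1a*-cKO library 1 was far below the rest, at 47.7% of the control mean, while library 4 exceeded every control library. The Log2FC was -0.20 with a 95% interval of -0.57 to 0.17 (FDR = 0.419), so a decrease as large as the DEG threshold was not resolved by these libraries. Without *Bmpr1a*-cKO library 1 the Log2FC was -0.02, and without *Bmpr1a*-cKO library 4 it was -0.38.

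Within single libraries the count of *M1ap* relative to *Tex11* was much lower in *Bmpr1a*-cKO than in control. The log2 ratio was 1.76, 1.45, 1.67 and 1.77 in control and 0.45, -0.02, 0.41 and 0.42 in *Bmpr1a*-cKO libraries 1 to 4. No *Bmpr1a*-cKO library reached the lowest control. The difference of the means was -1.35 (two-sided exact permutation p = 0.0286, the lowest possible with the 70 arrangements of 4 against 4, and 0.0571 after adjustment over the 4 ratios). This comparison does not depend on how libraries are scaled, and its adjusted p missed 0.05. The 4 ratios were chosen with earlier results of these data known, so the p is not that of an independent test.

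*Rnf212* (chr5:108729290-108774982, minus strand) encodes a RING-type factor that holds the MutS clamp on future crossover sites. It was the least abundant gene by CPM, at 3.29, 2.48, 3.75 and 2.52 CPM in the controls and at 0.596, 0.818, 1.57 and 1.23 CPM in *Bmpr1a*-cKO libraries 1 to 4. The *Bmpr1a*-cKO values rest on 5, 11, 15 and 18 counts, the fewest of the 9 genes. All of them were below all control values. The Log2FC was -1.48 with the widest 95% interval of the 9 genes, -2.06 to -0.91 (FDR = 0.000771).

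*Ccnb1ip1* (chr14:50789248-50807732, minus strand) encodes HEI10, the RING-type regulator that limits RNF212 and marks the sites kept as crossovers. It was at 17.1, 13.7, 17.0 and 16.1 CPM in control and at 9.18, 9.44, 11.4 and 11.8 CPM in *Bmpr1a*-cKO libraries 1 to 4. The lowest control, library 2, was above the highest *Bmpr1a*-cKO value, in library 4. Its Log2FC of -0.60 (SE 0.114; FDR = 0.000991) was the smallest of the 7 DEGs. *Ccnb1ip1* shares 12.4% of its exon length with *Rpph1*, the RNA of RNase P, on the same strand. *Rpph1* was at 2299 ± 359 and 2341 ± 313 CPM (FDR = 0.884), and how reads in the shared stretch were assigned is not stated.

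The log2 ratio of *Rnf212* to *Ccnb1ip1* was -2.36, -2.45, -2.16 and -2.66 in control and -3.82, -3.47, -2.82 and -3.23 in *Bmpr1a*-cKO libraries 1 to 4. The genotypes did not overlap, and their means differed by -0.93 (two-sided exact permutation p = 0.0286, adjusted p = 0.0571, which missed 0.05). This pair too was chosen with earlier results of these data known.

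*Cntd1* (chr11:101279012-101296317, plus strand) encodes a cyclin-like protein needed late, when intermediates are designated as crossovers. Control libraries were close together at 12.6, 12.04, 12.7 and 11.9 CPM, and *Bmpr1a*-cKO libraries were at 6.56, 5.50, 7.64 and 9.07 CPM. The *Bmpr1a*-cKO libraries were lower and more spread out than the controls, with SDs of 1.53 and 0.397 CPM. The Log2FC was -0.77 (SE 0.138; FDR = 0.000723). On the opposite strand *Becn1*, an autophagy gene, covers 70.2% of the exon length of *Cntd1*. The libraries were made with a directional kit, which keeps the strand of each read, but whether reads were then counted by strand is not stated. *Becn1* was at 65.8 ± 2.33 and 60.3 ± 0.688 CPM (Log2FC -0.13; FDR = 0.120), and it too was lower in all *Bmpr1a*-cKO libraries. On the CPM scale its means differed by about as much as those of *Cntd1* (12.3 ± 0.397 and 7.19 ± 1.53 CPM), and the part of shared reads in the *Cntd1* value was not tested.

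*Mlh3* (chr12:85234520-85270599, minus strand) encodes the subunit that carries the nuclease activity of the MutL complex of crossovers. It was at 41.9, 44.5, 43.8 and 42.9 CPM in control and at 42.2, 38.5, 41.8 and 39.8 CPM in *Bmpr1a*-cKO libraries 1 to 4. The groups overlapped through *Bmpr1a*-cKO library 1. The Log2FC of -0.10 had a 95% interval of -0.23 to 0.04 (FDR = 0.293), which lies within the DEG threshold on both sides.

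**Figure D2:**
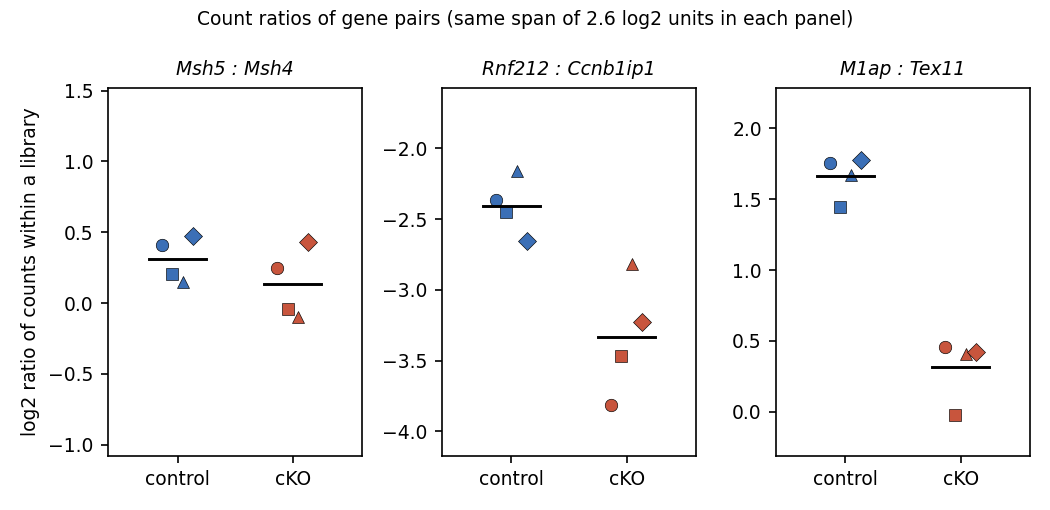
Log2 ratio of counts within each library for 3 pairs of crossover genes, with points for single control (blue) and *Bmpr1a*-cKO (red) libraries and black bars for group means, on axes of equal span. The ratios of *Rnf212* to *Ccnb1ip1* and of *M1ap* to *Tex11* are lower in all *Bmpr1a*-cKO libraries, whereas that of *Msh5* to *Msh4* overlaps.

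Per kilobase of exon, the level of the genes in control ovaries spanned from 48.9 ± 9.49 CPM per kb for *M1ap* to 1.54 ± 0.267 CPM per kb for *Msh4*. *Hfm1* (10.1 ± 1.19), *Tex11* (9.32 ± 1.12) and *Ccnb1ip1* (8.48 ± 0.828) followed *M1ap*, each overlapping its neighbour in the order. *Mlh3* stood apart at 5.73 ± 0.150 CPM per kb. *Cntd1* (2.79 ± 0.0897), *Msh5* (2.40 ± 0.540), *Rnf212* (1.83 ± 0.374) and *Msh4* formed the low end, again with overlap between neighbours. In *Bmpr1a*-cKO ovaries *M1ap* was still first at 16.4 CPM per kb, but *Hfm1* ranked 5 at 3.12 CPM per kb, behind *Tex11* (7.98), *Ccnb1ip1* (5.55) and *Mlh3* (5.37).

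Among the 7 DEGs the single libraries held to a common pattern. *Bmpr1a*-cKO library 1 had the lowest value of the 4 *Bmpr1a*-cKO libraries for 6 of them, and library 2 for *Cntd1*. The highest value was in library 4 for 5 genes and in library 3 for *Msh4* and *Rnf212*. Control libraries shared an order too, with control library 2 lowest for 6 of the 7 genes and control library 4 highest for 4. Shares over all genes tested were not counted for the control libraries. Relative to the control mean, the median over the 7 genes was 34.2%, 35.3%, 52.2% and 51.5% in *Bmpr1a*-cKO libraries 1 to 4. Of all genes tested, 34.0% were lowest in *Bmpr1a*-cKO library 1, and of the other downregulated DEGs 45.2% were. The shares lowest in *Bmpr1a*-cKO library 2 were 19.2% and 27.0%. The shares with the highest value in *Bmpr1a*-cKO library 4 were 24.7% of all genes tested and 42.7% of the other downregulated DEGs. For library 3 they were 23.0% and 29.8%. *Ddx4*, an RNA helicase found in germ cells, was also lowest in *Bmpr1a*-cKO library 1. It was at 106 CPM there against 167, 159 and 179 CPM in *Bmpr1a*-cKO libraries 2 to 4, and library 1 was the shallowest. The part of germ cell content or depth in this pattern was not tested. With *Bmpr1a*-cKO library 1 left out, the same count of 7 genes were DEGs.

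**Figure D3:**
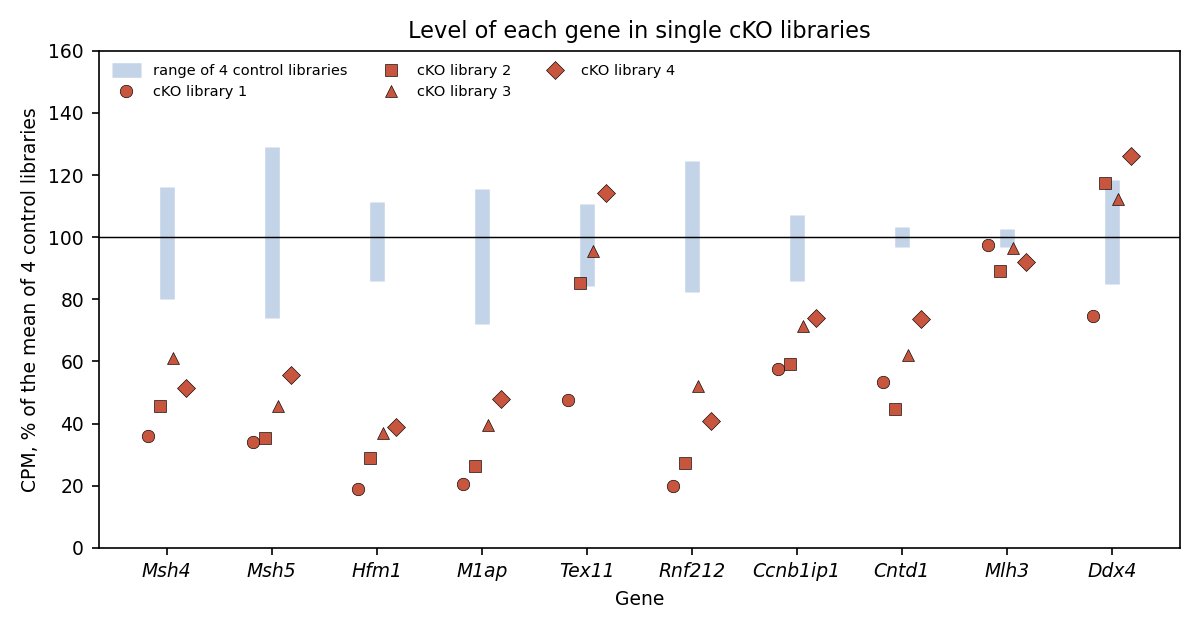
Level in each *Bmpr1a*-cKO library (red, marker shapes for libraries 1 to 4) as a percentage of the mean of 4 control libraries, for the 9 crossover formation genes and the germ cell gene *Ddx4*, with blue bars for the range of the control libraries. Library 1 (circle) is lowest for 6 of the 7 downregulated genes and also for *Tex11* and *Ddx4*.

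Germ cell markers did not fall as a group with these genes. *Ddx4* averaged 142 ± 21.9 CPM in control against 153 ± 32.3 CPM in *Bmpr1a*-cKO libraries (Log2FC 0.11; FDR = 0.561). *Dazl*, an RNA-binding protein gene of germ cells, was higher in *Bmpr1a*-cKO (Log2FC 0.63; FDR = 0.00101), as were *Dnd1* (0.78) and *Nanos3* (0.76). *Mael* (-0.80) and *Tdrd9* (-0.63), genes of the piRNA pathway, were the downregulated DEGs among the 10 markers, whose median Log2FC was 0.23. Of the 8 pregranulosa markers 7 were lower with an FDR below 0.05, against 12.5% of all genes tested, with *Foxl2* the single DEG (Log2FC -0.57). Summed Sertoli markers spanned 18.2 to 20.8 CPM in control against 14.55 to 15.8 CPM in *Bmpr1a*-cKO libraries (*Cyp26b1* a DEG, Log2FC -0.61), and mesonephric markers 130 to 161 against 101 to 121 CPM. The pregranulosa, Sertoli and mesonephric sums were thus lower in all *Bmpr1a*-cKO libraries. Macrophage markers were at 30.8 to 38.8 and 37.9 to 48.5 CPM, with *Adgre1* (0.78) and *C1qa* (0.69) upregulated. Stromal (2312 to 3042 and 2293 to 2880 CPM), endothelial (285 to 335 and 266 to 310 CPM) and erythroid sums (242 to 343 and 192 to 278 CPM, with *Hba-a1* and *Hbb-bt* listed at 0 in all libraries) overlapped between genotypes. The part of cell composition in the fall of the crossover genes was not tested.

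Of 12 other factors of crossover formation and of the repair steps before it, 7 were DEGs, all downregulated, 2 more (*Rnf212b* and *Hsf2bp*) were lower with an FDR below 0.05 only, and 3 did not pass the test. Over all genes tested, 4.06% were downregulated DEGs and 12.5% were lower at this FDR. Their median Log2FC was -0.73. *Meiob* and *Spata22*, which encode a complex on single-stranded DNA in meiosis, dropped from 8.61 ± 1.52 to 1.35 ± 0.785 CPM and from 11.6 ± 2.54 to 2.29 ± 1.10 CPM (Log2FC -2.59 and -2.33), larger fold changes than those of any of the 9 genes. *Shoc1*, the XPF-like ZMM protein, went from 19.2 ± 6.33 to 7.34 ± 1.86 CPM (Log2FC -1.37; FDR = 0.000186). *Mcmdc2* (-1.39), *Brme1* (listed as *4930432K21Rik*; -1.01) and *Tex15* (-0.79) act on break repair before crossovers form. *Prr19*, the partner of *Cntd1*, had a Log2FC of -0.68 (FDR = 0.0105), close to the -0.77 of *Cntd1*. *Cdk2* (0.04), *Exo1* (0.19) and *Brip1* (-0.16) did not pass. *Spo16* and *Redic1* were not analysed here.

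Of the MutS and MutL genes that correct replication errors in mismatch repair, 4 were analysed. They held no DEG by edgeR and none by DESeq2, and their median Log2FC was 0.17. However, 3 had an unadjusted p below 0.05 in edgeR, and the share of such genes over all genes tested was not counted. *Msh6* was at 171 ± 14.9 CPM in control libraries and rose to 238 ± 19.4 CPM (Log2FC 0.48; FDR = 0.000215). *Msh3* (0.17), *Pms1* (0.16) and *Pms2* (-0.27) did not pass. Over all genes tested, 17.3% were higher at this FDR. Of 11 genes for structure-selective nucleases and for the dissolution of joint molecules, *Slx1b* was a DEG (Log2FC 0.64, FDR = 0.000965). *Blm* (0.39) and *Eme1* (0.35) were higher with an FDR below 0.05, and 8 did not pass. The median Log2FC of the 11 genes was 0.09. Upregulated DEGs made up 6.11% of all genes tested, and 17.3% were higher at this FDR.

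**Figure D4:**
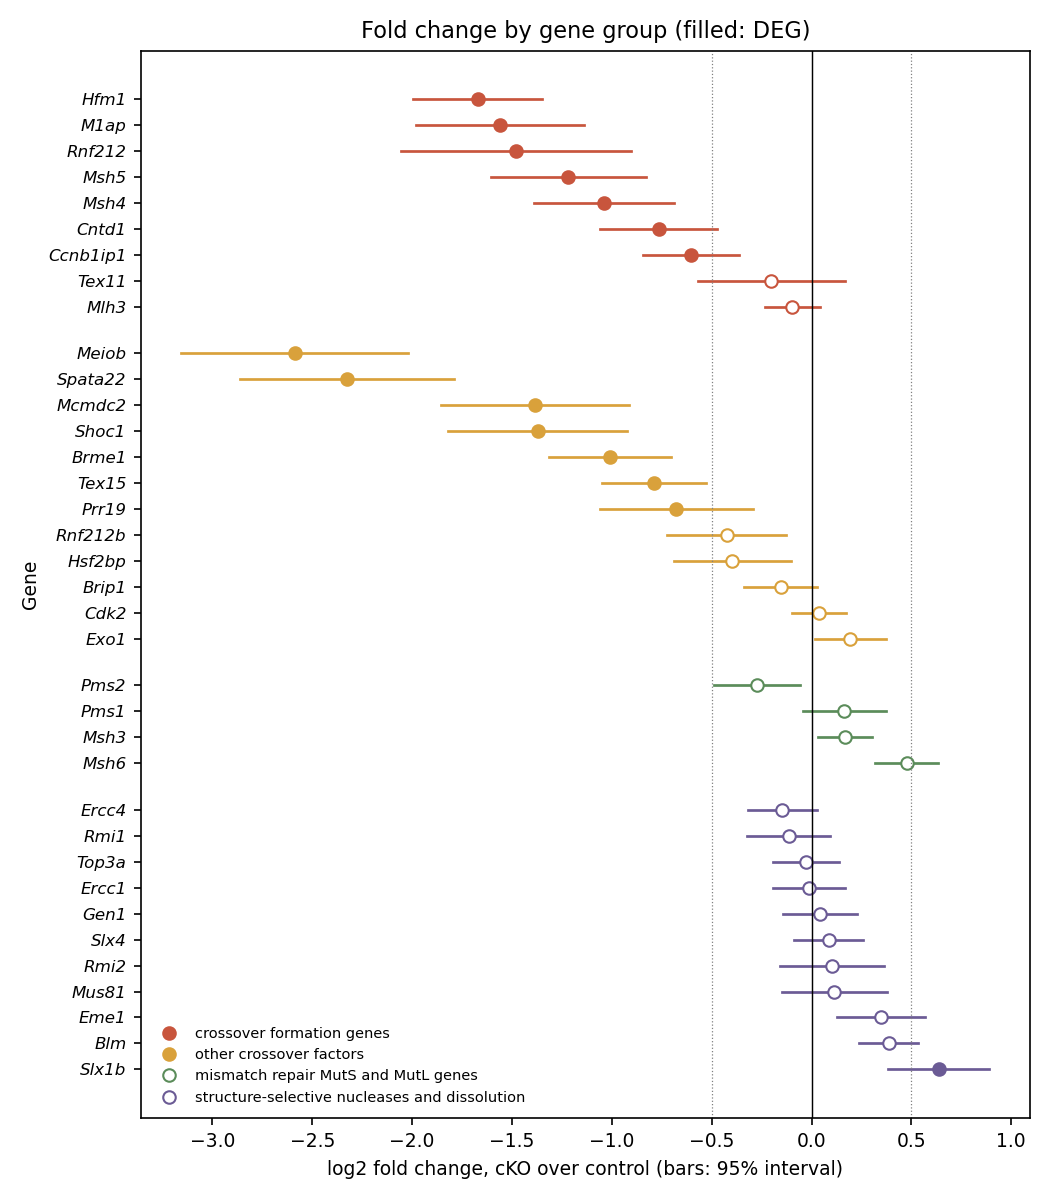
Log2FC of *Bmpr1a*-cKO over control with 95% intervals from the edgeR fit for the 9 crossover formation genes and 3 related groups. Filled points are DEGs, dotted lines mark -0.5 and 0.5, and the downregulated genes lie in the upper 2 groups, down to -2.59 for *Meiob*.

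Likeness between genes was measured as the root mean square difference of log2 CPM over the 8 libraries, each gene centred on its own mean. Because both genotypes enter, it reflects mainly the size of the fold change. Among the 9 genes the closest pairs were *Cntd1* with *Ccnb1ip1* (0.154), *Hfm1* with *M1ap* (0.157) and *Msh4* with *Msh5* (0.198). Outside them, the genes nearest to their mean profile were *Jade3* (0.0582), *Zcwpw1* (0.0632), *Syce1* (0.0706), *Acss2* (0.0978) and *Glrb* (0.101). *Zcwpw1* encodes a reader of histone marks at recombination hotspots and *Syce1* a central element protein of the synaptonemal complex. *Zcwpw1* averaged 128 CPM in control against 69.2 CPM in *Bmpr1a*-cKO libraries, and *Syce1* at 41.6 and 22.8 CPM. The nearest gene to *Msh5* was *Sycp2* (0.0918), an axis protein gene, and to *M1ap* it was *Ccdc36* (0.0947), also known as *Iho1*, a factor of break formation. For the remaining genes it was *Ddb2* for *Msh4* (0.125), *Ugt8a* for *Hfm1* (0.113), *Klhl35* for *Rnf212* (0.128), *Lzts3* for *Cntd1* (0.103), *B230217C12Rik* for *Tex11* (0.0783), *Wipi2* for *Mlh3* (0.0337) and *Pde3b* for *Ccnb1ip1* (0.0575).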

How the data were processed

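Fetal ovary pools (4 control, 4 *Bmpr1a*-cKO) were profiled by RNA-Seq at E14.5. Per the labels and the paper, the authors trimmed reads with Trimmomatic 0.39, checked them with FastQC 0.11.9 and mapped them with STAR 2.5.2 to mm10. They deposited whole-number counts of reads per gene symbol for each library, not normalized. The strand setting and annotation of the counting are not given in the sources used here. The deposited signal table of 14244 genes was each count divided by 1 factor per library, and only its gene set was used, as an alternative filter.

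Here, genes were kept by filterByExpr, scaled by TMM and tested by quasi-likelihood in edgeR 4.0.16 in R 4.3.3 (two-sided, Benjamini-Hochberg over the 14249 genes tested, no covariates), with the DEG thresholds of the study. limma 3.58.1, DESeq2 1.42.0 and other scalings and filters were alternatives. CPM are TMM-scaled and means are given with the SD of 4 libraries. Log2 ratios within libraries carried a prior count of 0.5 and likeness a prior count of 2. The counting limit for 0 used 3 counts and covers counting error only. Gene positions, exon lengths and overlaps came from GENCODE vM21 and promoters from RefSeq. The fit was tested on simulated data. The genes, lists and ratios were chosen with earlier results of these data known. All 9 genes are described, and of the other lists every DEG, *Shoc1*, *Ddx4*, *Dazl*, *Bmpr1a* and the nearest genes by likeness. Listed genes under the DEG threshold were named in addition, after their values were seen. No library was left out. Some listed genes and 1 of the 4 ratios tested are not reported here, and the adjustment of p-values still covers all 4 ratios.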

Additional observations from a re-analysis of the deposited data

Results flagged for a closer look

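In *Bmpr1a*-cKO library 2 the log2 ratio of *M1ap* to *Tex11* was -0.0225, whereas the other *Bmpr1a*-cKO libraries were at 0.45, 0.41 and 0.42, a gap large enough to pass the critical value of Dixon's test for 4 samples. The test was run on 26 groups of libraries and marked 1, and about 1 in 20 groups is marked by chance.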

How the results depend on the processing

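The count of 7 downregulated DEGs among the 9 crossover formation genes was the same in every alternative run except scaling by germ cell markers, where it was 8. That scaling used the summed counts of the 10 germ cell markers, whose most abundant gene, *Dazl*, was itself upregulated (Log2FC 0.63). It moved the median Log2FC of all genes tested to -0.30. DEGs were then split into 2258 down and 371 up, against 578 and 871. The part of *Dazl* in this shift was not tested. *Tex11* then had a Log2FC of -0.57 (FDR = 0.0206), and *Mlh3* -0.38 (FDR = 0.117). Mismatch repair DEGs went from 0 to 1, a downregulated gene, and nuclease and dissolution DEGs from 1 to 0 under it. Downregulated DEGs among the other crossover factors went from 7 to 9 under the same scaling. They numbered 8 without control library 4, 9 without *Bmpr1a*-cKO library 4 and 7 with any other single library left out. With 1 library left out, mismatch repair DEGs ranged from 0 to 1, with 1 upregulated gene without control library 3 or without *Bmpr1a*-cKO library 1, the difference in the log2 ratio of *Rnf212* to *Ccnb1ip1* from -1.10 to -0.77 (exact permutation p = 0.0571 without any 1 control library), and that of *M1ap* to *Tex11* from -1.42 to -1.23. With the replicate number as a block, 7 genes were still DEGs. The paired differences of those ratios were -0.93 and -1.35, and that of *Msh5* to *Msh4* was -0.18. Each had an exact sign-flip p of 0.125, the smallest that 4 pairs allow. Same-numbered libraries correlated at 0.198, 0.161, 0.108 and -0.0871 in their deviations from the group means, for numbers 1 to 4. The highest correlation of the same control library with a *Bmpr1a*-cKO library of another number was 0.00833, 0.0719, 0.182 and 0.150. These values do not settle whether the numbers pair the libraries. Depth limits *Rnf212* most.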
